A study of Sus scrofa with 220 samples.

Results

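Pig embryos were examined for the genes of the transforming growth factor beta (TGF-beta) and bone morphogenetic protein (BMP) pathway. The genes were those whose Ensembl pig symbol begins with BMP, ACVR, TGFB, SMAD, INHB, LEFTY or GDF and a digit, without GDF3, and which had any count in at least 3 of 220 cells. Of 22840 gene entries, 40 carried such a symbol and 33 met the minimum. GDF2, GDF5, GDF7 and INHBE had no count in any cell, and BMP15, BMP3 and BMP5 had counts in fewer than 3 cells. BMP2, INHBA, SMAD1 and LEFTY2 were not matched to an entry by symbol and were not analysed here.

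Single cells were profiled by Smart-seq2, a full-length polyA RNA method, in 28 embryos recovered from artificially inseminated crossbred sows. Morulae (M, labelled Morula, embryonic days 4 to 5) gave 47 cells of 8 embryos, of which 1 cell had no embryo in its identifier and entered the shares of cells but not the tests. Early blastocysts (EB, days 5 to 6) gave 24 inner cell mass (ICM) cells of 7 embryos and 28 trophectoderm (TE) cells of 10 embryos. Late blastocysts (LB, days 7 to 8) gave 25 epiblast (EPI) cells of 4 embryos and 36 hypoblast (HYPO) cells of 5 embryos, and spherical embryos (Sph, days 10 to 11) gave 48 EPI cells of 4 embryos and 12 HYPO cells of 3 embryos. Of these embryos, 2 in ICM, 3 in TE and 1 in LB HYPO (embryo AL) gave only 1 cell of that label. TE was removed from LB by immunosurgery, the EPI and HYPO of Sph were separated by hand, and TE of these later stages was not collected. The ICM, TE, EPI or HYPO label of a cell is that of the authors. They also inferred sex from Y chromosome genes. By their count every Sph HYPO cell was male, most LB HYPO cells were female, and all other labels held both sexes. Sex did not enter the tests.

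Ligands of this family bind a pair of type II and a pair of type I receptor kinases, and the type I receptor phosphorylates receptor-regulated SMAD proteins, which enter the nucleus with SMAD4. BMP ligands act mainly through SMAD1, SMAD5 and SMAD9, while activin, NODAL and TGF-beta ligands act through SMAD2 and SMAD3. SMAD6 and SMAD7 inhibit the receptors, and in mammalian embryos NODAL and BMP signalling take part in patterning the epiblast and its neighbouring lineages.

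Each cell held 1012604 to 5696373 counts, with a median of 2006853.5. Median genes with a count per cell were lowest in TE (4939) and highest in Sph EPI (6558). The labels were checked against marker genes. The 7 matched HYPO markers summed to 789 to 2967 TPM (the deposited level, corrected for gene length and depth) in LB HYPO embryos and to 11.2 to 73.9 in LB EPI embryos. The 6 matched EPI markers summed to 650 to 779 TPM in Sph EPI and to 19.6 to 174 in Sph HYPO. The 7 TE markers summed to 175 to 58315 TPM in TE and to 223 to 609 in ICM, with the lowest TE value in the single cell of embryo E6-ER, which had KRT8, GATA3 and DAB2 at 0 and KRT18 at 0.368 TPM. KRT8, KRT18, GATA3 and DAB2 thus go against its TE label. Nearly all of its 175 TPM came from the other TE markers, GATA2, TFAP2A and CDX2. Its embryo is less certain. CDX2, a TE marker, was over TPM 1 in 3.57% of TE cells. The 4 M and ICM markers summed to 311 to 729 TPM in M, 179 to 838 in ICM and 2.25 to 9.88 in Sph EPI. They summed to 51.2 to 754 TPM in TE, which overlapped M and ICM, so this list did not set ICM apart from TE.

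A cell had 1 to 16 of the 33 genes over TPM 1. Sph HYPO cells had the highest median, 12, followed by Sph EPI (9), ICM (8.5), M and LB HYPO (8), LB EPI (7) and TE (4.5). The lower number in TE went with the lower number of genes of any kind per cell, and its part was not tested. SMAD2, TGFBR1, ACVR2A and SMAD5 had the highest levels by the mean over the 7 labels, at 66.5, 36.6, 26.3 and 26.1 TPM. ACVRL1, a type I receptor best known from endothelium, was never over TPM 1 and was left out of the tests, so 32 genes were tested.

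**Figure D1:**
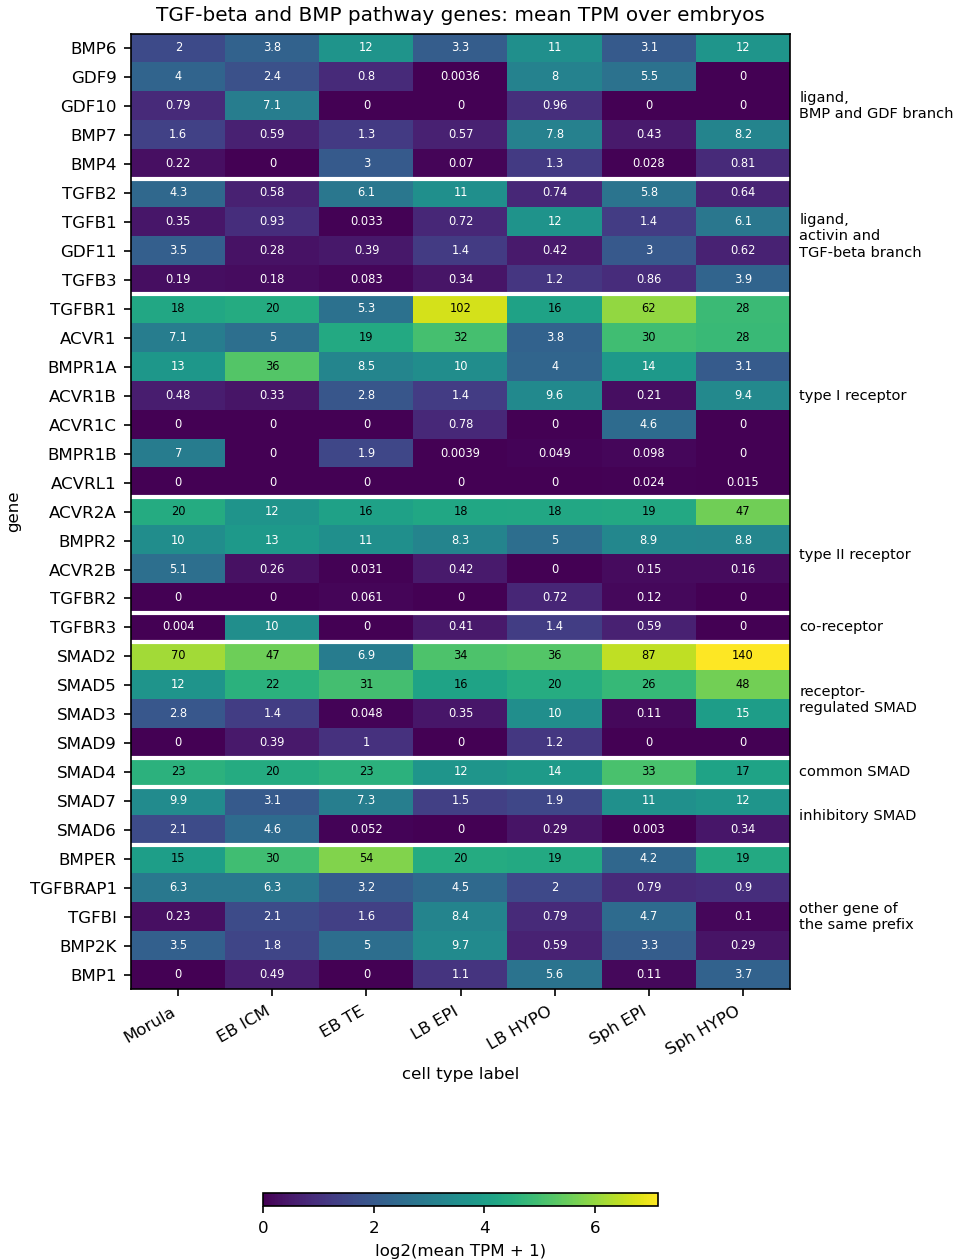
Mean TPM over embryos of the 33 genes (rows, grouped by role) in the 7 cell type labels (columns), with the colour on a log2(TPM + 1) scale and the TPM printed in each cell. SMAD2 reached 140 TPM in Sph HYPO and TGFBR1 102 TPM in LB EPI, while TGFBR2 and ACVRL1 stayed under 1 TPM in every label.

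Embryo and label sums of the counts were compared with edgeR's quasi-likelihood test, with Benjamini-Hochberg adjustment over all genes and a threshold of 0.05. Between ICM and TE 1 of 31 genes with a count was called, where 0.859% of all genes were called. Between EPI and HYPO 0 of 32 were called in LB (2.05% of all genes) and 0 of 30 in Sph (1.20%). Along development, 1 of 30 was called between M and ICM (2.67%), and none between ICM and LB EPI (3.11%), ICM and LB HYPO (2.30%), LB EPI and Sph EPI (0.163%) or LB HYPO and Sph HYPO (0.183%). The test of whether the EPI and HYPO difference itself differed between LB and Sph called none (0.0414%).

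The calls of 0 came with 9 genes at an unadjusted p under 0.05 in LB (where 21.3% of all genes were), 5 in Sph (16%), 6 between ICM and LB EPI (24.2%) and 5 between ICM and LB HYPO (24.7%). There were 1 between LB EPI and Sph EPI (14.2%), 2 between LB HYPO and Sph HYPO (10.7%) and 4 in the test of the difference between stages (11%). Between ICM and TE there were 8 (21.5%) and between M and ICM 6 (25.5%). DESeq2, another count model, called 3 of 32 in LB (8.80% of all genes), 4 in Sph (9.33%), 1 between ICM and TE (2.76%), 2 between M and ICM (7.50%) and 3 between ICM and LB EPI (8.93%). It called 2 between ICM and LB HYPO (6.98%), 1 between LB EPI and Sph EPI (5.43%), 0 between LB HYPO and Sph HYPO (2.08%) and 2 in the test between stages (3.44%).

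The median log2 fold change of these genes was -0.24 between ICM and TE, where that of all genes with a count was 0.09, and 0.37 between M and ICM, where all genes had 0.17. For EPI against HYPO the median was -0.65 in LB, where that of all genes was 0.14, and 0.00 in Sph, where all genes had a median of 0.69. The same floor gave -0.65 and 0.11 in LB, and 0.00 and 0.50 in Sph. In this Sph comparison the median of all genes fitted was 0.57, and it was 1.54 without Sph HYPO embryo F, 0.35 without Sph EPI embryo F, 1.05 with embryos as a block and 0.13 with limma on log2(TPM + 1).

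The only gene called was TGFBR3 (ENSSSCG00000006911), or betaglycan, a co-receptor that presents TGF-beta ligands, TGFB2 above all, and that also binds inhibin. TGFBR3 was higher in the ICM than in M and in TE, 2 comparisons that share the ICM sums. Over the 7 ICM embryos the lowest level was 0, the median 7.95 and the highest 18.4 TPM. It was 0 TPM in all 10 TE embryos, and in M it was 0 in 7 embryos and 0.0316 TPM in 1. Thus 6 of 7 ICM embryos lay above every M and TE embryo, and ICM embryo AF, with no count, did not. Among the 6, AD (6.88 TPM) and AI (17.6 TPM) were 1 cell each, and 3 of the 10 TE embryos were also 1 cell.

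TGFBR3 had 1510 counts over the ICM sums, 0 over TE and 1 over M. The level was at least 568-fold higher in ICM than in TE, taking 3 counts over the TE group as the floor (adjusted p = 0.0194 by edgeR). Against M the ratio was 2852, with a counting interval of 511 to 112726 (log2 fold change of M against ICM -10.46, standard error (SE) 1.52, adjusted p = 0.000741 by edgeR). TGFBR3 was over TPM 1 in 12 of 24 ICM cells (50%, exact Clopper-Pearson 95% interval 29.1 to 70.9), in 0 of 28 TE cells (0 to 12.3) and in 0 of 47 M cells (0 to 7.55). All such intervals reflect counting error alone.

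TGFBR3 was called in 24 of 28 alternative fits against TE and in 23 of 25 against M. Without the E6-ER cell the adjusted p of TGFBR3 against TE was 0.013 by edgeR. In 6 of the 7 embryos that gave both labels TGFBR3 was 5.76 to 18.4 TPM in ICM and 0 in TE, and in the other, AF, it was 0 in both. With the embryo as a block over these 7 embryos the direction was the same and the adjusted p was 0.246 by edgeR. It was 0.0724 with sums of at least 2 cells, and 0.189 and 0.2 in the first 4 and last 4 of the 8 sequencing pools. Against M it was 0.0519 and 0.0605 in these 2 groups of pools. Of the 4 matched blood markers, HBB was over TPM 1 in 41.7% of ICM, 14.3% of TE and 6.38% of M cells, while CD14 was over TPM 1 in 4.17%, 7.14% and 10.6%. LYZ was over TPM 1 in 4.17% of ICM cells and in no TE or M cell, and PTPRC was at 0 in every cell. All 4 summed to 4.27 to 154 TPM in ICM, 0 to 104 in TE and 0 to 19.3 in M embryos, with mean HBB over cells at 59.9, 15.5 and 2.95 TPM. The 7 matched HYPO markers summed to 183 to 659 TPM in ICM, 28.2 to 322 in TE and 163 to 487 in M. The part of both lists in the TGFBR3 result was not tested.

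After the ICM, TGFBR3 was low. The 4 LB EPI embryos had 0, 0, 0.43 and 1.23 TPM, and the 5 LB HYPO embryos 5.3, 0, 0, 1.95 and 0. In Sph EPI it was 0.715, 0.615, 0 and 1.02 TPM, and in Sph HYPO 0 in all 3 embryos. The highest LB and Sph level, 5.3 TPM in the LB HYPO embryo of 1 cell, was below 6 of the 7 ICM embryos. The difference between ICM and LB EPI (log2 fold change 5.03, SE 1.99, adjusted p = 0.164 by edgeR) did not pass the threshold. Nor did that between Sph EPI and Sph HYPO, at least 21.5-fold higher in EPI (adjusted p = 0.309 by edgeR), or the test between stages (-10.30, SE 4.48, adjusted p = 0.412 by edgeR). With no count in Sph HYPO, the fitted value of -10.30 is no estimate of size.

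**Figure D2:**
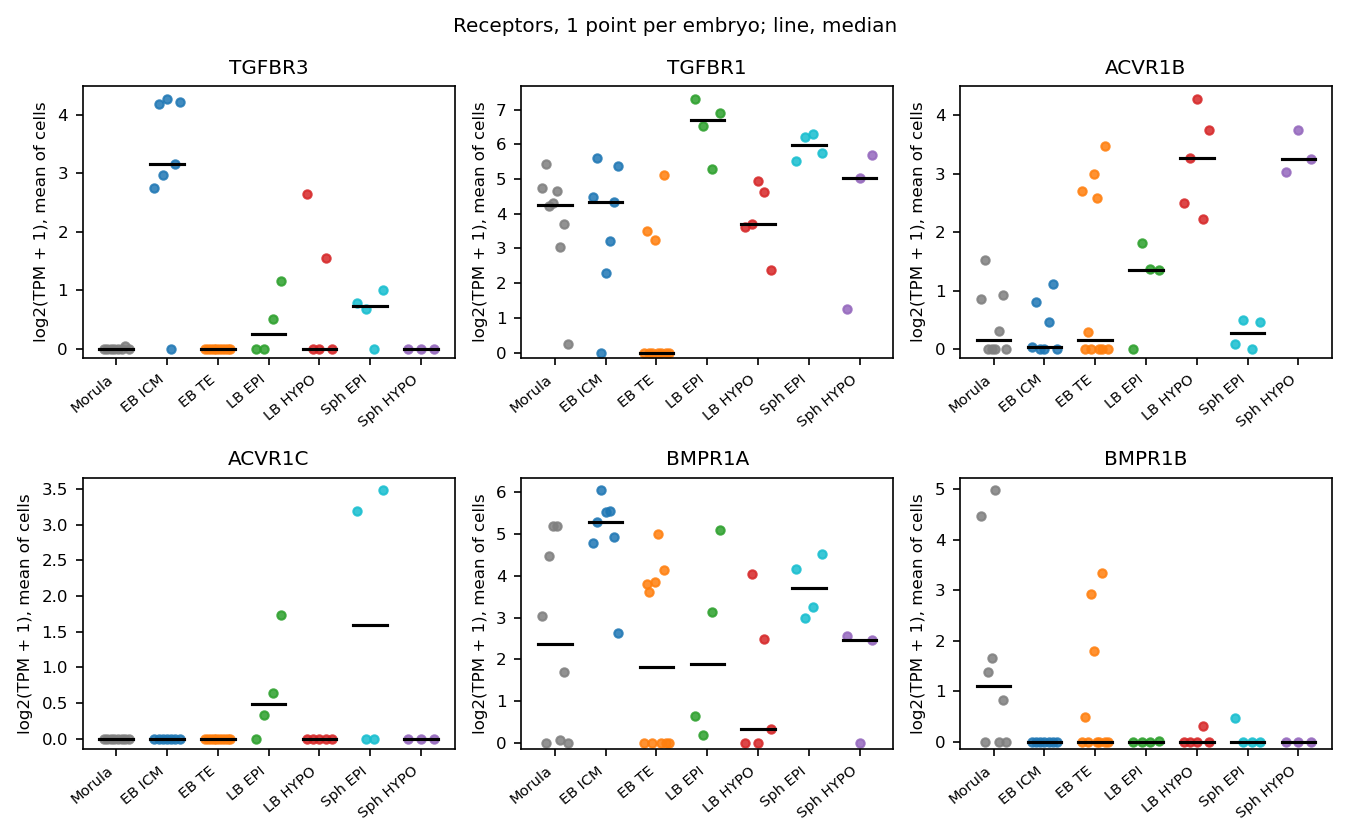
Levels of 6 receptor genes as log2(TPM + 1) of the mean over cells, with 1 point per embryo in each of the 7 cell type labels and a line at the median. TGFBR3 was above 0 in 6 of 7 ICM embryos and in none of the 10 TE embryos, and ACVR1C was above 0 only in EPI embryos.

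The ligands grouped here as a BMP and GDF branch under the symbol rule had means over the 7 labels of 0.875 to 5.2 TPM, and none was called in any comparison. This grouping does not state which SMADs each ligand, GDF9 among them, acts through. BMP6, a ligand that signals through SMAD5, had the highest mean at 5.2 TPM and was over TPM 1 in 89 of 220 cells. Its lowest, median and highest levels were 0, 1.55 and 6.07 TPM in M, 0.877, 2.46 and 7.81 in ICM and 0, 9.48 and 45.3 in TE. BMP6 was 1.82, 0.0617, 7.94 and 3.44 TPM in LB EPI and 11.1, 4.13, 29.4, 6.38 and 2.8 TPM in LB HYPO. It was 1.67, 1.34, 9.01 and 0.381 TPM in Sph EPI and 13.7, 19.1 and 3.89 TPM in Sph HYPO. At both stages the median was higher in HYPO, with groups that overlapped (adjusted p = 0.475 in LB and 0.473 in Sph by edgeR).

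GDF9, an oocyte-derived factor of the ovary, was detected in a minority of cells at the late stages, and no comparison of it passed. It was 0, 0, 0.0144 and 0 TPM in LB EPI and 15.8, 7.85, 0, 16.1 and 0 in LB HYPO. In Sph EPI it was 3.93, 9.49, 0 and 8.39 TPM and in Sph HYPO it was 0 in all 3 embryos. It was thus detected mainly in HYPO at LB and only in EPI at Sph, with an embryo at 0 in each of these groups. GDF9 was over TPM 1 in 22.2% of LB HYPO cells (interval 10.1 to 39.2) and 0 of 25 LB EPI cells (0 to 13.7). At Sph it was over TPM 1 in 12.5% of EPI cells (4.73 to 25.2) and 0 of 12 HYPO cells (0 to 26.5), with overlapping intervals.

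The GDF9 difference between stages had a log2 value of -18.74 (SE 4.68, adjusted p = 0.252 by edgeR), which did not pass. LB EPI held 1 count and Sph HYPO none, so this fitted value is no estimate of size. In LB the ratio of HYPO to EPI was 921 (counting interval 165 to 36394, adjusted p = 0.16 by edgeR), with 1 count over the EPI sums. Sph EPI was at least 71.3-fold above Sph HYPO (adjusted p = 0.262 by edgeR), and LB HYPO at least 123-fold above Sph HYPO (adjusted p = 0.466 by edgeR). Sph EPI exceeded LB EPI by a ratio of 447 (80 to 17667, adjusted p = 0.267 by edgeR). In M, GDF9 ranged from 0 to 18.5 TPM with a median of 1.32.

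GDF10, a BMP3-related factor, was detected in 3 of 7 ICM embryos, at 24.3, 15.3 and 10.1 TPM, and in none of the TE, LB EPI, Sph EPI or Sph HYPO embryos. It was at 1.07 and 5.24 TPM in 2 of 8 M embryos and at 4.82 TPM in 1 of 5 LB HYPO embryos. Its level in ICM was at least 409-fold above TE (adjusted p = 0.0971 by edgeR), at least 328-fold above LB EPI (adjusted p = 0.141 by edgeR), and in LB HYPO at least 50.2-fold above LB EPI (adjusted p = 0.249 by edgeR). None of these passed. TGFBR3 and GDF10 were over TPM 1 together in 2 ICM cells, with 10 cells having TGFBR3 alone and 3 GDF10 alone.

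BMP4, a ligand made by extraembryonic cells in the mouse, was over TPM 1 in only 8 of 220 cells. It was highest in TE embryo AC at 26.7 TPM, was 3.74 and 0.0598 TPM in 2 other TE embryos and had no count in ICM. TE was at least 53.2-fold above ICM (adjusted p = 0.114 by edgeR), LB HYPO at least 14.3-fold (adjusted p = 0.148 by edgeR) and M at least 3.35-fold (adjusted p = 0.188 by edgeR), and none passed. BMP7, another SMAD5-activating ligand, was over TPM 1 in 47.2% of LB HYPO and 4% of LB EPI cells, at 0, 7.09, 12.8, 1.72 and 17.2 TPM in the HYPO embryos and 0, 0, 2.29 and 0 in EPI (adjusted p = 0.379 by edgeR).

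Of the activin and TGF-beta branch, the ligands that fall under the symbol rule (TGFB1, TGFB2, TGFB3 and GDF11) had means over the 7 labels of 1.11 to 4.25 TPM, and none was called. TGFB2 had the highest mean, 4.25 TPM. It was 0, 12.5, 5.21 and 25.5 TPM in LB EPI against 0, 0, 0.687, 3 and 0 in LB HYPO, and 2.73, 4.46, 12.7 and 3.25 in Sph EPI against 0.185, 0 and 1.73 in Sph HYPO. In Sph the lowest EPI embryo lay above the highest HYPO embryo, in LB the groups overlapped, and neither difference passed (log2 fold change 3.86, SE 2.17, adjusted p = 0.344 in LB, and 3.40, SE 2.02, adjusted p = 0.432 in Sph, by edgeR). In M the median was 2.24 TPM (0 to 17.1), in ICM 0 (0 to 4.1) and in TE 0 (0 to 49.8).

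TGFB1 showed its higher levels in HYPO. It was 8.27, 1.55, 48.6, 0.176 and 0 TPM in LB HYPO and 0, 0, 1.86 and 1.02 in LB EPI, and 1.71, 14.1 and 2.58 TPM in Sph HYPO and 1.36, 0.201, 0 and 4.02 in Sph EPI. These groups overlapped, and the differences did not pass (adjusted p = 0.345 and 0.793 by edgeR). With 60 counts in ICM and 3 in TE, the ratio of ICM to TE was 22.6 (counting interval 7.36 to 113, adjusted p = 0.114 by edgeR, and 0.118 without the E6-ER cell). TGFB3 was over TPM 1 in 38.9% of LB HYPO, 50% of Sph HYPO and 29.2% of Sph EPI cells, and in no more than 4.17% of cells of any other label. This depended on the threshold. Any TGFB3 count was found in 19 of 36 LB HYPO, 9 of 12 Sph HYPO, 33 of 48 Sph EPI and 11 of 25 LB EPI cells. The same held for 8 of 24 ICM, 7 of 47 M and 5 of 28 TE cells.

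GDF11, a ligand close to myostatin, had its highest mean in M (3.45 TPM), where the median was 0.778 and the highest embryo 21.9 TPM. Elsewhere it was over TPM 1 in 4.17% of ICM to 16.7% of Sph EPI and Sph HYPO cells. No comparison of GDF11 had an unadjusted p under 0.05.

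Among type I receptors, TGFBR1 was the most abundant and was highest in EPI. It was 158, 90.7, 38.4 and 119 TPM in the 4 LB EPI embryos and 11.3, 12, 29.8, 23.8 and 4.15 TPM in the 5 LB HYPO embryos. Every LB EPI embryo lay above every LB HYPO embryo. The log2 fold change of 2.49 (SE 0.61) had an adjusted p of 0.0559 by edgeR, just outside the threshold. It passed in 5 of 21 alternative fits, among them DESeq2 (0.00215) and the fit without LB EPI embryo AP (0.0487), and not with embryos as a block (adjusted p = 0.354).

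In Sph EPI, TGFBR1 was 45, 73, 77.7 and 52.6 TPM, and in Sph HYPO 1.39, 31.7 and 50.9 TPM. The groups overlapped, and the log2 fold change of 1.04 (SE 0.87, adjusted p = 0.585 by edgeR) was close to the median of all genes. The lowest, median and highest levels were 0.179, 18.2 and 41.9 TPM in M, 0, 19.3 and 47.6 in ICM and 0, 0 and 33.9 in TE, where 7 of 10 embryos had none. LB EPI against ICM did not pass (log2 fold change of ICM against LB EPI -2.36, SE 0.98, adjusted p = 0.174 by edgeR). TGFBR1 was over TPM 1 in 92% of LB EPI cells (interval 74 to 99) and in 25% of TE cells (10.7 to 44.9).

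The activin and NODAL type I receptors ACVR1B (ALK4) and ACVR1C (ALK7) had their highest levels in different lineages. ACVR1B was 4.65, 8.64, 18.5, 3.7 and 12.4 TPM in LB HYPO and 0, 2.53, 1.57 and 1.56 in LB EPI. In Sph HYPO it was 7.16, 12.5 and 8.5 TPM and in Sph EPI 0.0649, 0.404, 0 and 0.372. At both stages every HYPO embryo was above every EPI embryo.

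The ACVR1B log2 fold change of EPI against HYPO was -3.29 in LB (SE 1.47, adjusted p = 0.249 by edgeR) and -5.32 in Sph (SE 1.81, adjusted p = 0.22 by edgeR), and neither passed. ICM, with a highest embryo of 1.15 TPM, lay below every LB HYPO embryo (log2 fold change -5.11, SE 1.53, adjusted p = 0.107 by edgeR). This comparison was called in 4 of 22 alternative fits, that in Sph in 3 of 18 and that in LB in 1 of 21. ACVR1B was over TPM 1 in 75% of Sph HYPO cells (interval 42.8 to 94.5) and 4.17% of Sph EPI cells (0.509 to 14.3).

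ACVR1C had counts only in EPI. It was 0, 0.26, 0.551 and 2.32 TPM in LB EPI and 8.17, 0, 0 and 10.2 in Sph EPI, and it was over TPM 1 in 3 of 25 and 10 of 48 cells. LB EPI was at least 25.1-fold above LB HYPO (adjusted p = 0.229 by edgeR) and at least 25-fold above ICM (adjusted p = 0.134 by edgeR), and neither passed. Over all 220 cells, 43 had ACVR1B alone over TPM 1, 12 had ACVR1C alone and 1 had both.

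Of the BMP type I receptors, BMPR1A (ALK3) was highest in the ICM, with a lowest, median and highest embryo of 5.17, 37.7 and 65.1 TPM. The same values were 0, 4.74 and 35.3 TPM in M and 0, 5.63 and 31.1 in TE. It was 0.575, 0.14, 7.84 and 32.9 TPM in LB EPI and 17, 7, 8.56 and 21.9 in Sph EPI. HYPO levels were 0, 15.4, 0, 4.62 and 0.266 TPM in LB and 4.9, 0 and 4.53 in Sph. ICM and TE overlapped (log2 fold change 1.92, SE 1.33, adjusted p = 0.609 by edgeR), and so did EPI and HYPO in LB, whereas every Sph EPI embryo was above every Sph HYPO embryo (1.87, SE 1.59, adjusted p = 0.591 by edgeR).

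BMPR1B (ALK6) had its highest levels in M, at 21, 30.6, 1.59, 2.15 and 0.768 TPM in 5 of 8 embryos and 0 in the others. It had no count in ICM and was at 0.404, 6.55, 2.47 and 9.15 TPM in 4 of 10 TE embryos. M was at least 188-fold above ICM (adjusted p = 0.0566 by edgeR) and TE at least 109-fold (adjusted p = 0.113 by edgeR), and neither passed. LB HYPO was at least 6.71-fold above ICM on 22 counts (adjusted p = 0.178 by edgeR), and the test between stages gave -8.31 (SE 3.87, adjusted p = 0.447 by edgeR). With 1 count in LB EPI and none in Sph HYPO, the fitted value of -8.31 is no estimate of size.

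ACVR1 (ALK2), a type I receptor for BMPs, was 61, 16.4, 30.3 and 18.4 TPM in LB EPI and 0, 15.2, 0, 3.68 and 0 in LB HYPO. Every LB EPI embryo was above every LB HYPO embryo, and the difference did not pass (log2 fold change 3.12, SE 1.74, adjusted p = 0.339 by edgeR). In Sph EPI it was 17.4, 15.9, 53.7 and 33.8 TPM and in Sph HYPO 41.1, 24.9 and 16.9, which overlapped. Only 1 of 7 ICM embryos had any ACVR1, at 35.4 TPM, against 5 of 8 in M and 4 of 10 in TE.

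Of the type II receptors, ACVR2A and BMPR2 were found in every label. ACVR2A, used by activins and BMPs, was 0 to 59.6 TPM in M with a median of 9.7, 0 to 27.2 in ICM with a median of 12.5 and 0 to 69.3 in TE with a median of 5.36. It was 0, 19.6, 26.6 and 26.1 TPM in LB EPI and 47.7, 33.6, 0.739, 10.1 and 0 in LB HYPO. In Sph it was 42.7, 19.9, 0 and 12.9 TPM in EPI and 4.24, 39.3 and 98.5 in HYPO. All of these ranges overlapped.

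BMPR2, the main BMP type II receptor, had counts in every M, ICM and TE embryo, with medians of 10.4, 8.29 and 7.95 TPM. It was 2.01, 4.65, 4.14 and 22.3 TPM in LB EPI and 0.248, 11.6, 0, 1.22 and 11.8 in LB HYPO. Sph embryos had 14.5, 9.62, 0.0152 and 11.6 TPM in EPI and 21.7, 0.141 and 4.47 in HYPO. Its log2 fold changes lay between -0.90 (SE 1.68, LB HYPO against Sph HYPO) and 1.34 (SE 1.15, ICM against LB HYPO) over the 8 comparisons between labels, and none had an unadjusted p under 0.05.

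ACVR2B, a second activin type II receptor, was largely limited to M, where 6 of 8 embryos had counts (median 3.46 TPM, highest 12.5). Only 1 embryo each of ICM, TE, LB EPI and Sph HYPO, at 1.81, 0.314, 1.69 and 0.473 TPM, and 2 of Sph EPI had any. M against ICM (log2 fold change 4.80, SE 1.97, adjusted p = 0.148 by edgeR), ICM against LB HYPO (at least 4.01-fold, adjusted p = 0.22) and Sph HYPO against LB HYPO (at least 13.9-fold, adjusted p = 0.472) did not pass.

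TGFBR2, the type II receptor of the TGF-beta ligands, was over TPM 1 in 4 of 220 cells (1.82%, interval 0.498 to 4.59). TGFBR1, its partner, was over TPM 1 in 144 cells, of which 3 also had TGFBR2. TGFBR2 was 3.58 TPM in LB HYPO embryo AM, 0.611 in TE embryo AH and 0.465 in Sph EPI embryo F, and 0 in every other embryo and label. LB HYPO was at least 22.6-fold above LB EPI (adjusted p = 0.249 by edgeR) and at least 22.9-fold above ICM (adjusted p = 0.165 by edgeR). Those comparisons and the test between stages (-9.91, SE 4.16, adjusted p = 0.405 by edgeR) did not pass. With no count in LB EPI or Sph HYPO, the fitted value of -9.91 is no estimate of size.

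Receptors and SMADs were then counted in the same cell. A BMP set was a cell with ACVR1, BMPR1A or BMPR1B, with BMPR2, ACVR2A or ACVR2B, and with SMAD5 or SMAD9 over TPM 1. An activin set had ACVR1B or ACVR1C, ACVR2A or ACVR2B, and SMAD2 or SMAD3, and a TGF-beta set had TGFBR1, TGFBR2, and SMAD2 or SMAD3. The BMP set was found in 64 of 220 cells (29.1%), the activin set in 28 (12.7%) and the TGF-beta set in 3 (1.36%). SMAD1 was not analysed, so the BMP set leaves out cells that had SMAD1 without SMAD5 or SMAD9. SMAD4 was not part of any set. It was over TPM 1 in 52.3% of all cells and 66.7% of Sph HYPO cells.

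The activin set had its highest share in Sph HYPO, with 8 of 12 cells (66.7%, interval 34.9 to 90.1) and shares of 50% to 100% in its 3 embryos. In the other labels it was found in 3.57% (TE) to 14.6% (Sph EPI) of cells. The BMP set ranged from 16.7% of LB HYPO cells (interval 6.37 to 32.8) to 58.3% of Sph HYPO cells (27.7 to 84.8), with overlapping intervals. No test was made of these shares, and a shallow cell can lack a gene that it expresses. Of the TE markers, KRT8 and KRT18 were over TPM 1 in 100% of both Sph HYPO and Sph EPI cells. DAB2 was over TPM 1 in 100% of Sph HYPO and 4.17% of Sph EPI cells, GATA3 in 75% and 8.33%, TFAP2A in 16.7% and 37.5%, and GATA2 and CDX2 in none of either. All 7 TE markers summed to 17308 to 43067 TPM in Sph HYPO embryos and to 2808 to 9002 in Sph EPI embryos. The part of these markers in the Sph HYPO levels was not tested.

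**Figure D3:**
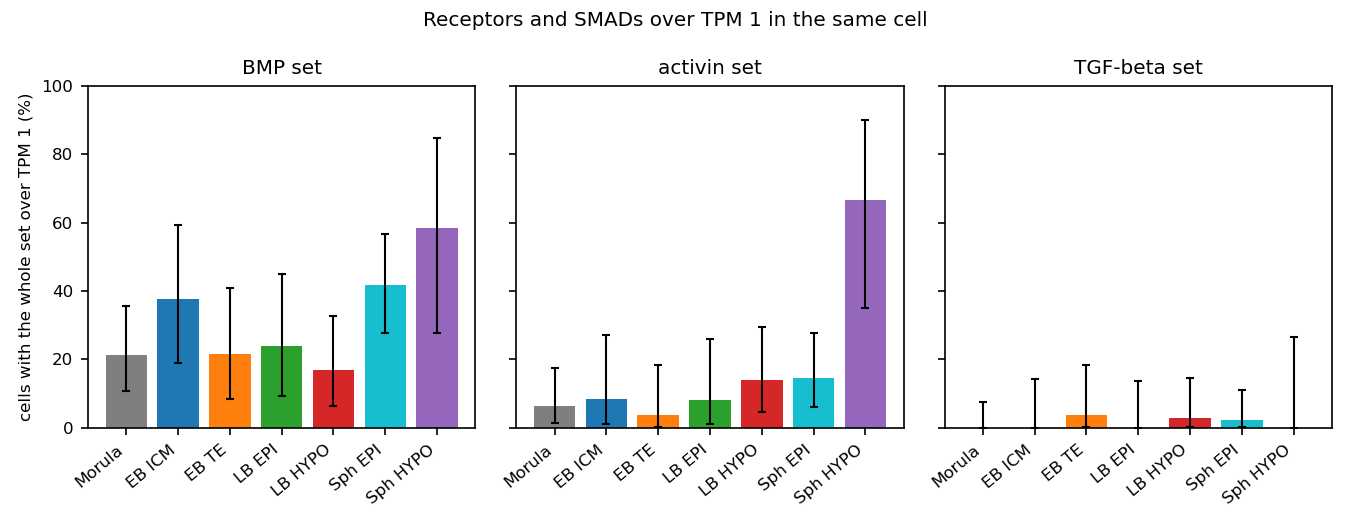
Share of cells, in percent, in which a BMP, activin or TGF-beta set of receptors and receptor-regulated SMADs was over TPM 1, for each cell type label. The sets do not include SMAD4, and the exact 95% intervals cover counting error only. The activin set reached 66.7% of Sph HYPO cells and at most 14.6% elsewhere, and the TGF-beta set was seen in 3 of 220 cells.

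SMAD2 had the highest mean of the 33 genes, with its lowest mean in TE, 6.92 TPM. The lowest, median and highest embryos were at 12.4, 68.7 and 123 TPM in M, 0, 45.1 and 107 in ICM and 0, 0.916 and 29.8 in TE. LB levels were 0, 67.3, 24.2 and 46.7 TPM in EPI and 0, 50.3, 12.3, 48.3 and 71 in HYPO. In Sph they were 88, 65.7, 98.2 and 95.1 TPM in EPI and 99.7, 160 and 161 in HYPO. Sph HYPO embryos were thus above every Sph EPI embryo, and 5 of 7 ICM embryos were above every TE embryo.

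The SMAD2 difference between ICM and TE did not pass (log2 fold change 2.64, SE 1.45, adjusted p = 0.384 by edgeR). Between Sph EPI and Sph HYPO it was -0.68 (SE 0.57, adjusted p = 0.588 by edgeR). SMAD2 was over TPM 1 in 25% of TE cells (interval 10.7 to 44.9), in 83% of M cells (69.2 to 92.4) and in 91.7% of Sph HYPO cells (61.5 to 99.8).

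SMAD3, the second SMAD of that branch, was more restricted, with its highest means in Sph HYPO (14.8 TPM) and LB HYPO (10.5 TPM). SMAD3 had counts in 7 of 8 M embryos, with a median of 1.38 TPM (0 to 9.69). It was 0, 0.614, 42.8, 1.15 and 7.94 TPM in LB HYPO and 0, 0.257, 0 and 1.15 in LB EPI, and 27.3, 10.4 and 6.56 TPM in Sph HYPO and 0, 0.022, 0 and 0.42 in Sph EPI. The Sph lineages did not overlap, while the LB lineages did. EPI against HYPO gave -4.91 in LB (SE 2.23, adjusted p = 0.249 by edgeR) and -6.89 in Sph (SE 2.09, adjusted p = 0.172 by edgeR). ICM against TE gave 5.77 (SE 1.94, adjusted p = 0.113 by edgeR) on 305 and 5 counts, with 3 of 7 ICM embryos between 2.78 and 4.33 TPM and no TE embryo over 0.468. None passed. SMAD2 and SMAD3 were over TPM 1 together in 21 cells, SMAD2 alone in 120 and SMAD3 alone in 7.

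Of the BMP SMADs, SMAD1 was not analysed here. SMAD5 was over TPM 1 in 148 of 220 cells and in all 12 Sph HYPO cells. Its medians were 11.4 TPM in M (0.735 to 25.8), 21.4 in ICM (1.15 to 51.8) and 18.6 in TE (0 to 138). It was 10.9, 11.9, 28.1 and 15.1 TPM in LB EPI and 12.9, 28.5, 18.3, 19.8 and 21.9 in LB HYPO. The Sph levels were 9.93, 32.3, 51.8 and 11.7 TPM in EPI and 8.7, 64.9 and 70.6 in HYPO. SMAD5 levels overlapped in every comparison, with an adjusted p of 0.592 in LB and 0.598 in Sph by edgeR.

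SMAD9, also a BMP SMAD, was over TPM 1 in 9 cells, 7 of them LB HYPO. It was 5.61 and 0.457 TPM in 2 LB HYPO embryos, 2.76 in 1 ICM embryo and 10.2 in 1 TE embryo, and 0 elsewhere. LB HYPO was at least 157-fold above LB EPI (adjusted p = 0.237 by edgeR), and ICM was at least 86.9-fold above M (adjusted p = 0.106) and at least 41.7-fold above LB EPI (adjusted p = 0.221), and none passed.

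SMAD4, the partner of all receptor-regulated SMADs, was found in every label. Its medians were 17.9 TPM in M (1.07 to 56.5), 25.1 in ICM (0 to 41.2) and 24.9 in TE (0 to 43.7). It was 1.49, 4.81, 5.36 and 36.6 TPM in LB EPI and 0, 29.5, 26.4, 13.8 and 0 in LB HYPO. At Sph it was 33.8, 30.4, 54.2 and 15 TPM in EPI and 12, 0 and 37.9 in HYPO. It overlapped in every comparison.

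**Figure D4:**
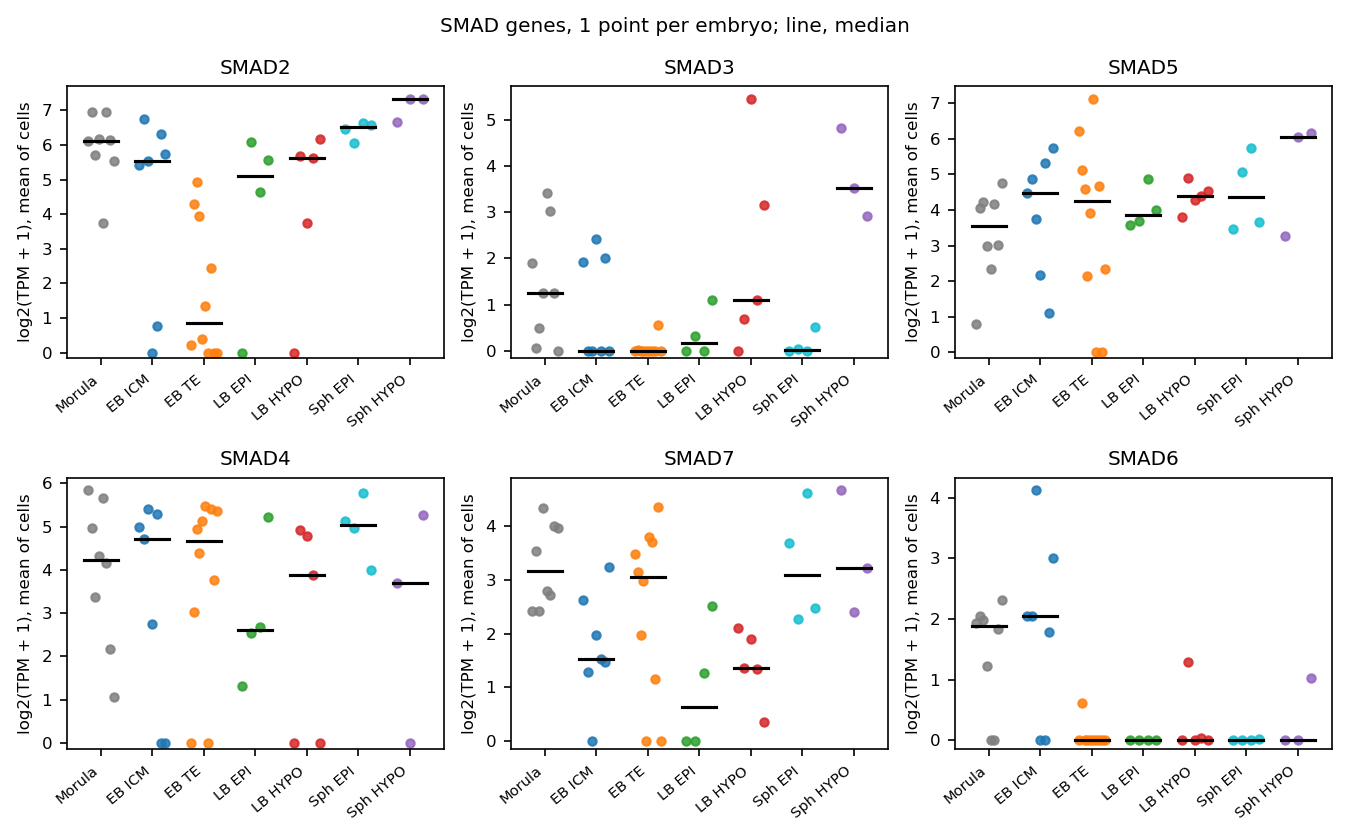
Levels of 6 SMAD genes as log2(TPM + 1) of the mean over cells, with 1 point per embryo in each of the 7 cell type labels and a line at the median. SMAD2 had a median of 0.916 TPM in TE and 68.7 TPM in M, and SMAD6 was above 0 in 5 of 7 ICM embryos and 1 of 10 TE embryos.

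Of the inhibitory SMADs, SMAD7, which acts on both branches, was found in every label. It was 4.34 to 19.2 TPM in M, with a median of 8.25, and had medians of 1.87 TPM in ICM (0 to 8.43) and 7.35 in TE (0 to 19.5). SMAD7 was 0, 0, 1.41 and 4.72 TPM in LB EPI and 3.3, 1.56, 2.75, 1.54 and 0.284 in LB HYPO. In Sph it was 11.9, 3.84, 23.4 and 4.56 TPM in EPI and 24.4, 4.31 and 8.31 in HYPO. The Sph HYPO embryos were above every LB HYPO embryo, a difference that did not pass (log2 fold change -2.78, SE 1.69, adjusted p = 0.531 by edgeR).

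SMAD6, which mainly inhibits BMP receptors, was found mainly in M and ICM. Its median was 2.7 TPM in M (0 to 3.97), 3.13 in ICM (0 to 16.5) and 0 in TE (0 to 0.525). In LB and Sph it was above 0 in 4 of 16 sums of an embryo and label, at 0.0118 TPM in Sph EPI, 1.03 in Sph HYPO, and 1.44 and 0.0313 in LB HYPO. ICM against TE gave a log2 fold change of 5.82 (SE 1.77, adjusted p = 0.112 by edgeR), and ICM was at least 59.8-fold above LB EPI (adjusted p = 0.126 by edgeR). LB HYPO was at least 13.5-fold above LB EPI (adjusted p = 0.247 by edgeR). None passed, and SMAD6 was over TPM 1 without SMAD7 in 8 cells and with it in 14.

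Of the other genes with these prefixes, BMPER, a secreted BMP-binding protein, was the most abundant. Its medians were 16.7 TPM in M (0 to 33.4), 43.6 in ICM (0 to 55.5) and 27.8 in TE (0 to 272), where the highest value was the E6-ER cell and the next highest embryo had 87.7 TPM. BMPER was 1.06, 28.1, 24 and 27.2 TPM in LB EPI and 9.95, 30.3, 21, 16.8 and 17.5 in LB HYPO. Sph levels were 8.78, 0.487, 0 and 7.73 TPM in EPI and 0, 30 and 28.1 in HYPO. Sph EPI thus had the lowest mean, 4.25 TPM, and no comparison of BMPER had an unadjusted p under 0.05.

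TGFBI, an extracellular matrix protein induced by TGF-beta, was found mainly in EPI. It was 3.59, 0.819, 8.08 and 20.9 TPM in LB EPI and 0, 2.11, 1.16, 0.673 and 0 in LB HYPO. In Sph it was 1.67, 10.9, 0.784 and 5.28 TPM in EPI and 0, 0 and 0.299 in HYPO. In Sph every EPI embryo was above every HYPO embryo (log2 fold change 5.29, SE 2.35, adjusted p = 0.323 by edgeR), and the difference did not pass. In M it was above 0 in 2 of 8 embryos, in ICM in 3 of 7 and in TE in 2 of 10.

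TGFBRAP1, a TGFBR1-associated protein, had medians of 4.41 TPM in M (0.395 to 16.1), 6.17 in ICM (2.39 to 9.98) and 0.453 in TE (0 to 16.1). It was 0, 4.79, 2.65 and 10.4 TPM in LB EPI and 0, 0.953, 7.51, 0.61 and 0.925 in LB HYPO. Sph embryos had 0.421, 0.685, 0.195 and 1.87 TPM in EPI and 0, 0 and 2.71 in HYPO. M and ICM embryos all had some TGFBRAP1, and the embryos overlapped in each of the 8 comparisons between labels.

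BMP1, a protease that cleaves procollagens and the BMP antagonist chordin, was over TPM 1 in 13 cells. It had counts in 2 of 7 ICM embryos, at 1.44 and 2.01 TPM, and in none of the M or TE embryos. BMP1 was 3.03, 2.92, 0, 0 and 22 TPM in LB HYPO and 4.21, 0, 0.15 and 0 in LB EPI. Sph embryos had 0, 0 and 11.2 TPM in HYPO and 0, 0.432, 0 and 0.0259 in EPI. ICM was at least 18.8-fold above TE (adjusted p = 0.113 by edgeR) and at least 31.5-fold above M (adjusted p = 0.0984 by edgeR), and neither passed. BMP2K, a kinase named for its induction by BMP2, was over TPM 1 in 31 cells of all 7 labels, and none of its comparisons had an unadjusted p under 0.05.

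**Figure D5:**
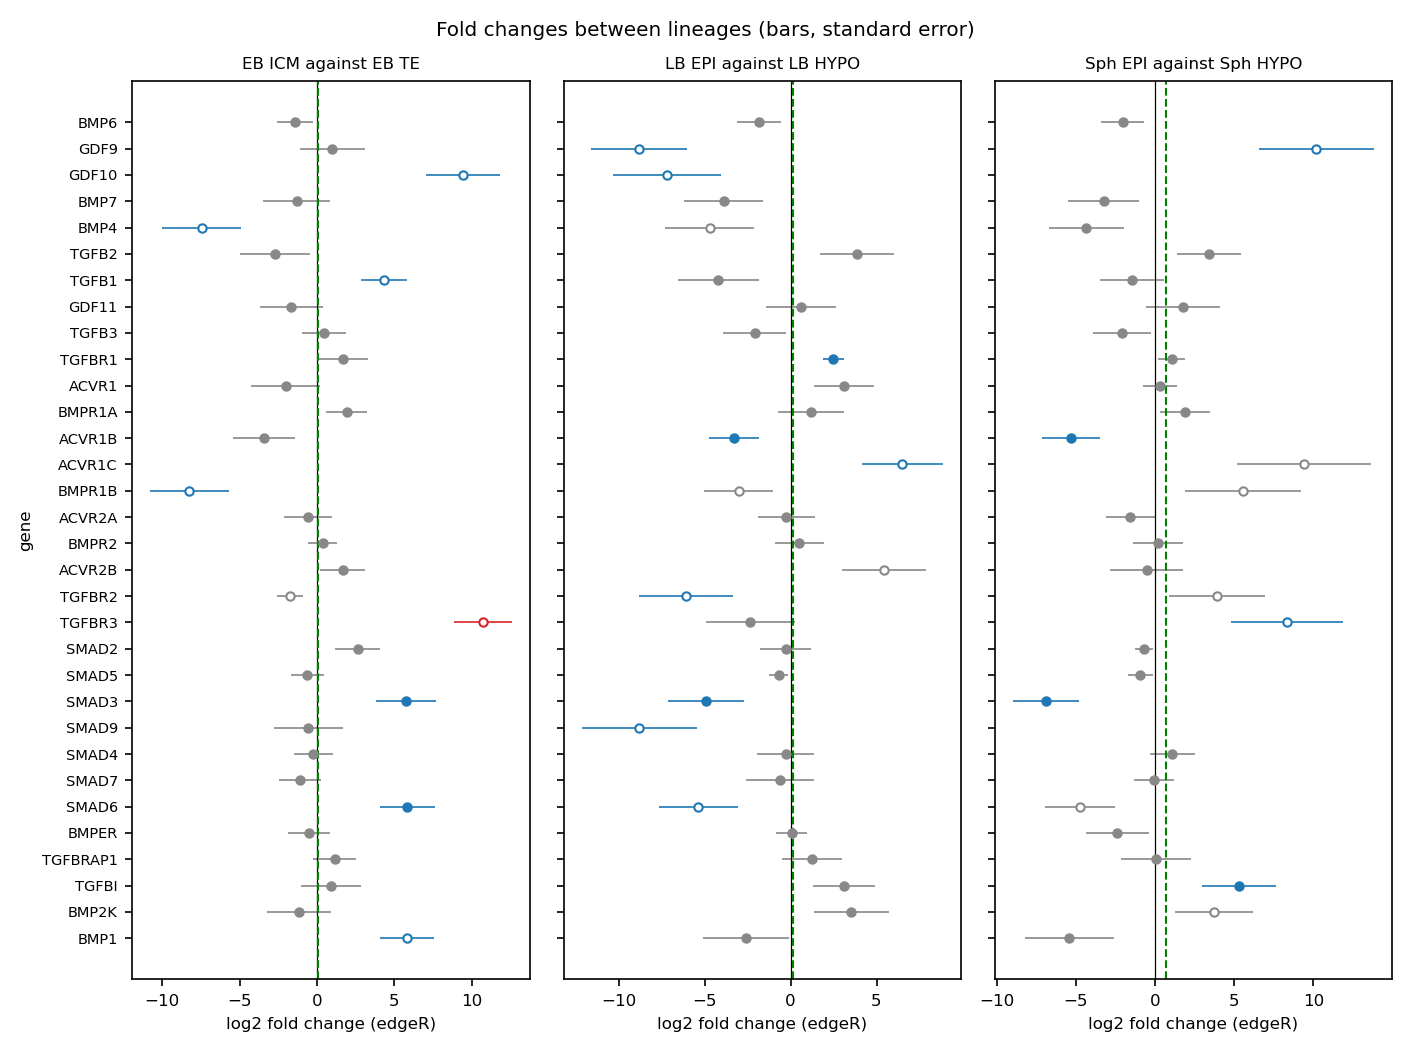
Log2 fold changes by edgeR (points) with their SEs (bars) for the 32 tested genes in ICM against TE, LB EPI against LB HYPO and Sph EPI against Sph HYPO. Red marks a gene called, blue an unadjusted p under 0.05 and grey the rest. Open points have 0 to 3 counts in 1 group, so that their fitted size is no bound, and the dashed line is the median of all genes, at 0.09, 0.14 and 0.69.

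Other genes of the pathway were taken from a list of 68 further ligands, receptors, antagonists, intracellular partners and targets, of which 44 matched an entry by symbol. By edgeR none was called of 31 with a count between ICM and TE (0.859% of all genes), of 31 between M and ICM (2.67%), of 35 between LB EPI and Sph EPI (0.163%) or of 36 in the test between stages (0.0414%). At an unadjusted p under 0.05 there were 5, 6, 7 and 9, where 21.5%, 25.5%, 14.2% and 11% of all genes were. The calls were 1 of 33 in LB (2.05% of all genes), 2 of 36 in Sph (1.20%), 2 of 33 between ICM and LB EPI (3.11%), 3 of 32 between ICM and LB HYPO (2.30%) and 1 of 35 between LB HYPO and Sph HYPO (0.183%).

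ID2, a target gene of BMP and SMAD signalling that blocks basic helix-loop-helix factors, was called as higher in Sph HYPO than in Sph EPI. It was 227 TPM or more in each Sph HYPO embryo and 7.56 to 18.2 in Sph EPI (log2 fold change -4.80, SE 0.62, adjusted p = 0.00476 by edgeR, and 0.0404 with embryos as a block). In LB the difference between EPI and HYPO did not pass (log2 fold change -3.02, SE 0.92, adjusted p = 0.142 by edgeR). LB HYPO (119 to 2167 TPM) was above ICM (0 to 19.9 TPM, log2 fold change -7.07, SE 1.52, adjusted p = 0.0188 by edgeR). The 2167 TPM came from the LB HYPO embryo of 1 cell, and the next highest embryo had 438 TPM. This list was chosen with results of these data known, so its calls are a description.

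The ligand NODAL, among the entries that the authors appended, had no count in M, ICM, TE or LB HYPO, was 45.3 to 85.2 TPM in LB EPI and 58.7 to 114 in Sph EPI. It was 174, 0 and 37.1 TPM in the Sph HYPO embryos. Its rise from ICM to LB EPI was at least 324-fold (adjusted p = 0.0223 by edgeR). All 16 appended entries hold even counts only. GDF3, a NODAL-related ligand outside the rule, was 122 to 197 TPM in LB EPI and 0 to 11 in LB HYPO, and 72.9 to 618 in Sph EPI and 252 to 573 in Sph HYPO.

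CHRD, or chordin, a secreted BMP antagonist, was higher in ICM than in LB HYPO (log2 fold change 8.60, SE 1.85, adjusted p = 0.0189 by edgeR), with a median of 28.2 TPM over ICM embryos and 0 over LB HYPO. ENG, or endoglin, a TGF-beta co-receptor related to TGFBR3, was higher in LB HYPO, at least 146-fold (adjusted p = 0.0459 by edgeR), with 0.202 to 20.3 TPM in its embryos and no count in ICM. THBS1, which releases latent TGF-beta, was at least 589-fold higher in LB EPI than in ICM (adjusted p = 0.0474 by edgeR).

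USP9X, a deubiquitinase of SMAD4, was higher in Sph EPI than in Sph HYPO (log2 fold change 2.57, SE 0.50, adjusted p = 0.0374 by edgeR, and 0.244 within embryos), at 69.8 to 229 and 16.5 to 26.3 TPM. The part of embryo sex in this difference was not tested. EOMES, also an appended entry and a target of NODAL signalling, was higher in Sph HYPO (11.7 to 131 TPM) than in LB HYPO (0 to 0.148 TPM, log2 fold change -10.72, SE 1.82, adjusted p = 0.0335 by edgeR). NODAL in LB EPI against LB HYPO, at least 325-fold, had an adjusted p of 0.0421 by edgeR, and of 0.723 with the embryo as a block. The number of alternative fits that kept each call was 16 of 18 for ID2 in Sph, 19 of 22 for ID2 and 14 of 22 for CHRD against LB HYPO, and 17 of 22 for NODAL between ICM and LB EPI. It was lower for NODAL in LB (5 of 21), USP9X (6 of 18), THBS1 (6 of 21), ENG (4 of 21) and EOMES (7 of 18).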

How the data were processed

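The authors cleaned Smart-seq2 reads with scythe and sickle. They used HISAT2 2.1.0 on the pig genome and HTSeq on Ensembl genes, and left out cells of low depth, of high mitochondrial content, and outliers. They deposited whole-number counts and the TPM they derived from them. 16 entries were added by the authors. Symbols came from a gene name table covering 11437 identifiers. The genes, lists and roles were chosen with earlier results of these data known.

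Cells were grouped by the cell type label, and the embryo was read from the letters of the cell identifier. Counts were summed per embryo and label, since cells of 1 embryo are not replicates. P-values measure the spread between embryos, which may share a sow. Tests covered the 14721 entries that passed TPM 1 in 3 or more cells, with edgeR 4.0.16 (TMM, quasi-likelihood) under R 4.3.3. The standard error is the log2 fold change divided by the square root of F. A fold against no count is a lower bound, with 3 counts in the group as the floor. Levels are the mean TPM over the cells of an embryo. Shares carry exact 95% intervals from scipy 1.17.1. Alternatives were DESeq2 1.42.0, limma 3.58.1 on log2(TPM + 1) and log2(TPM + 0.1), other filters, no TMM, sums of at least 2 cells, the first or last 4 of the 8 sequencing pools, all 7 labels in 1 model, the embryo as a block and each embryo left out. The fitting code was tested on simulated data.

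Fold changes with a test were named for every gene called or with an unadjusted p under 0.05 in a comparison, and embryo levels for genes called and the 3 most abundant of each role. Levels or tests given beyond that rule, such as those of BMP7, TGFB3, BMP2K and ACVRL1, were chosen after the values were seen. ICM and TE sums came from the same embryo in 7 pairs, and LB and Sph lineages in 3 pairs each. Residuals of the same embryo had a median correlation of 0.05, 0.016 and 0.058 across genes, against -0.006, -0.008 and -0.031 for different embryos.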

Additional observations from a re-analysis of the deposited data

Results flagged for a closer look

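In 173 combinations of a gene and a label with 4 to 10 embryos and unequal levels, 46 had an embryo whose gap to its nearest neighbour on the log2(TPM + 1) scale was larger than Dixon's 95% limit. Chance flags about 1 in 20 such groups for well-behaved values, and many of these groups have 1 embryo with counts and the others at 0. In TGFBR3, ICM embryo AF stood apart with 0 TPM and M embryo X with 0.0316 TPM.

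Among receptors, the high embryos were AE for ACVR1 in ICM (35.4 TPM), AG, AB and AQ for ACVR2B in ICM, TE and LB EPI (1.81, 0.314 and 1.69 TPM), AQ, AO and C for BMPR1B in LB EPI, LB HYPO and Sph EPI (0.0157, 0.247 and 0.393 TPM) and AH, AM and F for TGFBR2 in TE, LB HYPO and Sph EPI (0.611, 3.58 and 0.465 TPM). The low embryos were AN for ACVR2A in LB EPI (0 TPM), AI for BMPR1A in ICM (5.17 TPM), E for BMPR2 in Sph EPI (0.0152 TPM) and Y for TGFBR1 in M (0.179 TPM).

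Among SMADs, SMAD2 was low in M embryo V (12.4 TPM). SMAD3 was high in TE embryo AI (0.468 TPM) and Sph EPI embryo F (0.42 TPM), SMAD6 in TE embryo AB (0.525 TPM), LB HYPO embryo AM (1.44 TPM) and Sph EPI embryo F (0.0118 TPM), and SMAD9 in ICM embryo AC (2.76 TPM), TE embryo AE (10.2 TPM) and LB HYPO embryo AM (5.61 TPM).

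Among BMP and GDF ligands, BMP4 was high in M embryo W (1.76 TPM), TE embryo AC (26.7 TPM) and LB EPI embryo AP (0.282 TPM), and BMP7 in TE embryo AG (12.9 TPM) and LB EPI embryo AP (2.29 TPM). GDF9 was high in ICM embryo AE (16.8 TPM), TE embryo AD (7.73 TPM) and LB EPI embryo AP (0.0144 TPM), and GDF10 in M embryo U (5.24 TPM) and LB HYPO embryo AM (4.82 TPM).

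In the activin and TGF-beta branch, GDF11 was high in M embryo V (21.9 TPM), ICM embryo AF (1.93 TPM) and TE embryo AB (3.34 TPM), TGFB1 in TE embryo E6-ER (0.265 TPM), TGFB2 in ICM embryo AA (4.1 TPM) and TE embryo AI (49.8 TPM), and TGFB3 in M embryo ER (1.14 TPM). BMP1 was high in LB EPI embryo AN (4.21 TPM) and Sph EPI embryo D (0.432 TPM), TGFBI was high in M embryo Y (1.78 TPM), and BMPER was low in LB EPI embryo AN (1.06 TPM).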

How the results depend on the processing

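With 3 to 10 embryos a group and a gene often at 0 in some of them, a difference that missed the threshold may be real. Counts of these genes called are given with the share of all genes called in the same fit. Between ICM and TE the number was 0 with filterByExpr (which drops TGFBR3, 0.509%) and sums of at least 2 cells (0.754%). It was also 0 with the first 4 (0.265%) or the last 4 pools (0.0611%) and the embryo as a replicate block (0.550%). It was 6 with all 7 labels in 1 model, which called 865 of 14721 genes (5.88%) where the pairwise fit called 111. Between LB EPI and LB HYPO it was 3 with DESeq2 (8.80%), 1 without TMM (2.17%) and 1 of 23 with filterByExpr (3.99%). It was 2 with limma on log2(TPM + 1) (4.73%) and 1 on log2(TPM + 0.1) (4.50%). With an embryo left out it was 0 to 1 (1 without LB EPI embryo AP, 0.992%). Between Sph EPI and Sph HYPO it was 4 with DESeq2 (9.33%) and 1 with either limma fit (2.49% and 2.74%). Between M and ICM it was 2 with DESeq2 (7.50%) and with all 7 labels in 1 model (2.74%). It was 0 with filterByExpr (4.02%) and with the first 4 (0.258%) or the last 4 pools (0.897%). With an embryo left out it was 1 to 2 (2 without M embryo W, 1.92%). Between ICM and LB EPI it was 3 with DESeq2 (8.93%), 1 with limma on log2(TPM + 0.1) (6.87%) and 1 with all 7 labels (5.13%). With an embryo left out it was 0 to 1 (1 without ICM embryo AE, 2.43%). Between ICM and LB HYPO it was 2 with DESeq2 (6.98%) and either limma fit (4.14% and 3.90%) and 1 in the first 4 pools (1.37%). DESeq2 called 1 between LB EPI and Sph EPI (5.43%) and 2 in the test between stages (3.44%). The causes were not tested.

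The embryo block, over complete pairs, changed no other call on these genes. Of 46 pairs of a gene and a comparison with an unadjusted p under 0.05, 24 were called in no alternative. Of 1019 alternative values, 978 kept direction and side of the threshold, 32 passed it newly and 6 no longer passed. The other 3 were DESeq2 fold changes of 0.00, for BMP4 and SMAD9 in M against ICM and SMAD9 in ICM against LB EPI. Of 154 shares of cells, 20 moved beyond their interval with a threshold of TPM 5, 1 with TPM over 0 and 0 after thinning to 1000000 counts. The shares of TGFB3 were not among the 154.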
